A study of Homo sapiens with 6 samples.

Results

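The tripartite motif (TRIM) family was described in C4-2B-ENZR cells, a human prostate cancer line resistant to the prostate cancer drug enzalutamide. Its members were taken by symbol, as every gene whose symbol begins with TRIM and a number, except TRIM25. Of 17356 gene symbols in the files, 67 met this rule, and 66 of them had a mean signal of at least 1 in a group and were tested among 16548 genes. RNA-seq compared 3 libraries from control-siRNA cells (negative control, NC) with 3 libraries from cells given an siRNA against the mitotic kinesin KIF15 (siKIF15). Both groups are the same cultured line, kept in the same medium with serum, and both received an siRNA. The labels do not give the siRNA sequence or dose, the time after transfection or whether each library is its own culture. The p-values therefore reflect only how far these libraries differ, which may be technical.

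TRIM proteins share a RING finger, B-box zinc fingers and a coiled coil, followed by a C-terminal part that differs between classes and binds the target. The RING makes most of them ubiquitin ligases, which pass ubiquitin from a conjugating enzyme (E2) to a protein. Some members restrict viruses or tune antiviral signalling and are known as interferon-stimulated genes, while others act in chromatin, centrosomes, muscle or neurons. TRIM24 and TRIM28 are known as transcriptional cofactors.

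Of the 66 members tested, 7 rose and 5 fell in the siKIF15 libraries (limma, Benjamini-Hochberg adjusted p under 0.05 over all genes tested). The members that rose were TRIM22, TRIM21, TRIM29, TRIM26, TRIM38, TRIM56 and TRIM5, and those that fell were TRIM2, TRIM23, TRIM33, TRIM37 and TRIM44. The share that rose was 10.6%, beside 9.66% of all genes, and the share that fell was 7.58%, beside 8.33% of all genes. This near match depended on the mix of levels: all 12 calls were among the 39 members with a mean of at least 100 over the 6 libraries, of which 17.9% rose and 12.8% fell, beside 11.4% and 11.4% of the 11384 genes at that level. Neither share was tested against the background. Among the 9 members listed as interferon-stimulated, a list chosen with earlier results of these data known, 6 rose and none fell. The median log2 change of all members was 0.07, beside 0 for all genes tested.

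The targeted transcript did not bear out the label. KIF15 stood at 366.4, 403.6 and 319 under NC, against 294.8, 333.1 and 363 in siKIF15, and the groups overlapped (log2 change -0.13 ± 0.14 SE, adjusted p = 0.57, limma). Every direction given here is therefore that of the libraries labelled as KIF15 knockdown, relative to NC. Each value is a gene's signal as deposited, and the totals ran from 49460840 to 53157388 per library. They are not read counts, so the sequencing depth and the counting error behind a value are unknown. The 8 prostate luminal genes read, among them KLK3, summed to 251272.5 to 260274.6 in NC and to 273220.2 to 303199.6 in siKIF15, so the cells carried the markers of the labelled tissue. Over all genes, the split of 1599 higher and 1379 lower became 1205 and 1753 with libraries scaled to equal totals, and 1631 and 3095 after a correction for GC content and transcript length.

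Promoter sequences are shown first because 6 of the 7 rising members are listed as interferon-stimulated. The core of the interferon-stimulated response element, GAAANNGAA, and that of the gamma-activated site, TTCNNNGAA, were searched on both strands in the 250 bases before the RefSeq start site (GRCh38.p14). A promoter was given for 52 of the 67 members. The first core was present in 8 of these 52 (15.4%), beside 7.06% of 27305 RefSeq promoters of the same length, and in 5 of the 8 interferon-listed members with a promoter. These 5 and the pair of falling members that also held it are printed below, 60 bases each, with matches on either strand in capitals. TRIM22 and TRIM29 had no entry in the promoter table.

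TRIM26, chr6:30213565-30213624, minus strand: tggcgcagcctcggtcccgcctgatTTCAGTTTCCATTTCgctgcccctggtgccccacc
TRIM5, chr11:5685075-5685134, minus strand: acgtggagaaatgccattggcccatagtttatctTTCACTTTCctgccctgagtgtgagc
TRIM14, chr9:98119223-98119282, minus strand: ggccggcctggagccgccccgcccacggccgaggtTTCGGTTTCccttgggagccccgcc
TRIM34, chr11:5624887-5624946, plus strand: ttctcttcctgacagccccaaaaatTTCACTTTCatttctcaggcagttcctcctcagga
TRIM69, chr15:44736442-44736501, plus strand: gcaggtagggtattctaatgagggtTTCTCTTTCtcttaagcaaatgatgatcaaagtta
TRIM2, chr4:153151921-153151980, plus strand: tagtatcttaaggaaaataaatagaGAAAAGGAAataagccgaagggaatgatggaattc
TRIM44, chr11:35662715-35662774, plus strand: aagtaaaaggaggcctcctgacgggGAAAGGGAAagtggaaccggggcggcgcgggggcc

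The core began 26 bases before the start in TRIM5, 25 in TRIM14, 35 in TRIM44, 61 in TRIM69, 89 in TRIM34 and 217 in TRIM2. TRIM26 held a pair of overlapping cores, beginning 193 and 187 bases before the start. The core was in 2 of the 5 rising members with a promoter (TRIM26 and TRIM5), in 2 of the 5 falling members (TRIM2 and TRIM44) and in 4 of the 41 that did not pass (TRIM14, TRIM34, TRIM69 and TRIM16). TRIM21, TRIM38 and TRIM56 rose and held neither core in this window. The gamma-activated core was in 7 members (13.5%, beside 6.78% of all promoters), none of them among the 12 called. These include near-identical copies with the core at the same positions, TRIM49 with TRIM49C and TRIM64 with TRIM64B, so the 7 are not independent. The copies had means under 100, where no member passed. Such a match is a description of letters in a window, and no test was made of it.

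TRIM22, an antiviral ubiquitin ligase known to be induced by interferon, had the largest rise in the family. Its signal was 21.7, 37.8 and 35.1 under NC, against 342.4, 274.8 and 297.2 in siKIF15. Every siKIF15 library was several-fold above every NC library. The log2 change was 3.27 ± 0.24 (SE; 95% interval 2.76 to 3.77), a 9.62-fold rise (limma adjusted p = 8.5e-08), rank 116 of the 16548 log2 changes. Part of its sequence is shared with a neighbour: 9.63% of the 50-base stretches in its GENCODE transcripts also occur in transcripts of the olfactory receptor gene OR56B1.

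TRIM21, a cytosolic receptor for antibodies on incoming virus, stood at 849.7, 708.7 and 753.2 under NC, against 1843.5, 1864 and 1780.7 in siKIF15. The siKIF15 values lay close together and well above all NC values. The log2 change was 1.25 ± 0.09 (adjusted p = 1e-07), a 2.38-fold rise.

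TRIM26, a ligase described in the control of the transcription factor IRF3, was the most abundant of the rising members. It stood at 4955, 4707.5 and 5014.4 under NC, against 8521.3, 8198.6 and 7748.9 in siKIF15, with no overlap. The rise was 1.67-fold (log2 change 0.74 ± 0.07, adjusted p = 1.5e-06). Per kilobase of its longest coding transcript, TRIM26 averaged 1410 under NC, against 2350 in siKIF15, while TRIM22 averaged 10.5 and 102, so TRIM22 remained far below TRIM26 after its larger change.

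TRIM38, known as a brake on Toll-like receptor and NF-kappa B signalling, stood at 1503.8, 1587.5 and 1453.4 under NC, against 1894.1, 2055.1 and 2100.4 in siKIF15. The groups did not overlap, and the rise was 1.33-fold (log2 change 0.41 ± 0.08, adjusted p = 0.0024). After the correction for GC content and length its log2 change was 0.63.

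TRIM56 and TRIM5 had the smallest rises. TRIM56, which acts in double-stranded RNA and DNA sensing pathways, stood at 1206.4, 1209.3 and 1329.6 under NC, against 1671.1, 1405.9 and 1658.8 in siKIF15 (log2 change 0.34 ± 0.09, adjusted p = 0.02). TRIM5, which recognises the capsids of retroviruses, stood at 3102.5, 2659.5 and 2736.3 under NC, against 3320.8, 3321.9 and 3500.4 in siKIF15 (log2 change 0.26 ± 0.08, adjusted p = 0.03). In both genes all siKIF15 libraries lay above all NC libraries, but NC 1 of TRIM5 and siKIF15 2 of TRIM56 came near the other group. The TRIM56 call ended without NC 1, NC 2 or siKIF15 1 (adjusted p = 0.097, 0.11 and 0.13) and the TRIM5 call without NC 2, NC 3 or siKIF15 1 (adjusted p = 0.16, 0.15 and 0.11). Both also ended with libraries scaled to equal totals (adjusted p = 0.077 and 0.1).

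The other 3 interferon-listed members did not pass. TRIM14, a RING-less adaptor of mitochondrial antiviral signalling, stood at 6612.8, 6246.9 and 6447.9 under NC, against 7398.2, 6771.2 and 7141.2 in siKIF15. Its groups did not overlap, yet the log2 change was only 0.14 (95% interval 0 to 0.28, adjusted p = 0.16). TRIM34, a relative of TRIM5, was listed at 0, 1.2 and 1 under NC, against 0.8, 2.1 and 3.1 in siKIF15. Of its 50-base stretches, 81.3% are shared with the readthrough gene TRIM6-TRIM34, and how reads common to both were counted is not stated. TRIM69, described as a restriction factor of RNA viruses, was listed at 1.6, 0.2 and 7.7 under NC, against 3.7, 0 and 2.1 in siKIF15. At such levels a change of TRIM34 or TRIM69 was not detectable: the 95% intervals of their log2 changes were -0.83 to 2.44 and -2.14 to 1.55. Summed over the 9 listed genes, the signal was 17158.5 to 18253.4 under NC, against 23893.7 to 24995.9 in siKIF15. The list median was 0.41.

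Some of these genes are also abundant in leukocytes. Of 13 leukocyte markers 8 were in the files, none of them passed the test, and their summed signal was 67 to 90.9 under NC, against 74.4 to 84.4 in siKIF15, with PTPRC, the common leukocyte antigen, listed at 0 in every siKIF15 library. The ranges of the summed leukocyte signal overlapped between the groups.

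TRIM29 rose outside the interferon list. It lacks a RING and is known from basal and squamous epithelium. Its signal was 68.2, 74.1 and 72 under NC, against 158.8, 148.2 and 120.9 in siKIF15, without overlap (log2 change 0.98 ± 0.20, 1.97-fold, adjusted p = 0.0035). Of 11 basal epithelial markers, a list written after these data were seen, 6 rose and 2 fell (54.5% and 18.2%, beside 9.66% and 8.33% of all genes). COL17A1, a hemidesmosome collagen, stood at 13.8, 7 and 14.3 under NC, against 220.9, 247.4 and 220.8 in siKIF15, and KRT17, a basal keratin, was listed at 0 under NC, against 39.6, 37.5 and 23.8 in siKIF15. ITGA6 and DST fell, and TP63, the defining basal transcription factor, was listed at 0, 2.3 and 0 under NC, against 0, 4.1 and 2.1 in siKIF15. The summed signal of the 11 markers was 7092.9 to 7532.6 under NC, against 6935 to 7660.7 in siKIF15. The largest values in that sum were those of ITGA6 and ITGB4, which moved in opposite directions. ITGA6 averaged 4340.8 under NC, against 3445.2 in siKIF15, and ITGB4 averaged 2358.8, against 3073.5. The median log2 change of the 11 markers was 1.04, so the sum does not stand for each marker. KRT14, NGFR and LAMB3 also rose. The part of basal gene expression in the TRIM29 value was not tested.

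**Figure D1:**
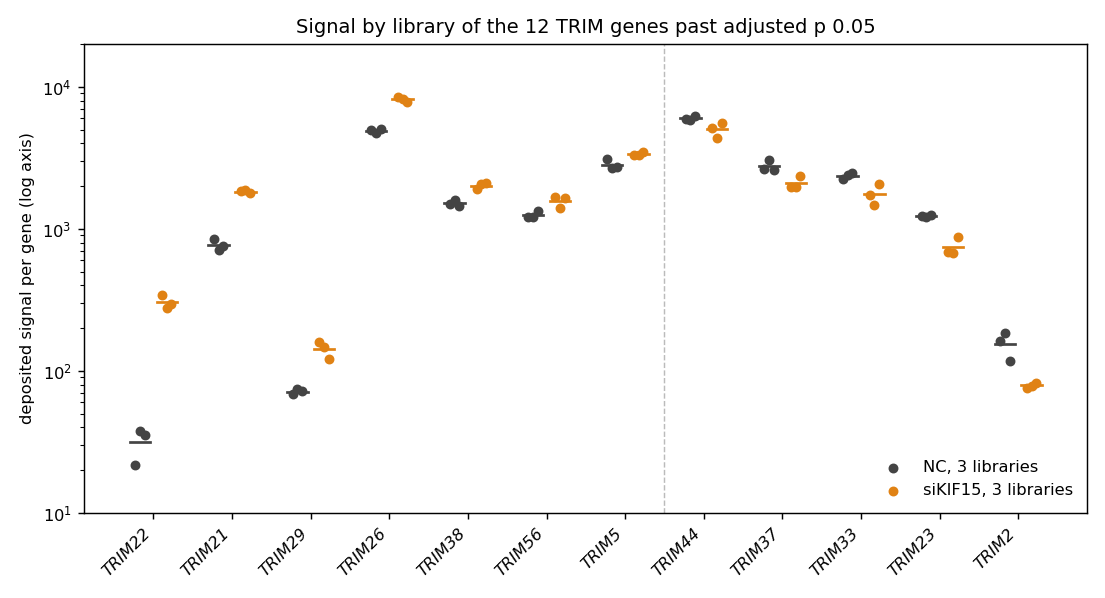
Deposited signal per gene (log axis) in each of the 3 NC and 3 siKIF15 libraries for the 12 TRIM genes past an adjusted p of 0.05; each point is a library and each short line a group mean. The groups do not overlap for any of the 12, and TRIM22 shows the widest gap, from 21.7 to 37.8 in NC against 274.8 to 342.4 in siKIF15.

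TRIM23 had the smallest adjusted p among the falls. It joins a RING to a GTPase domain of the ADP-ribosylation factor type. The signal was 1233.2, 1211.6 and 1251.7 under NC, against 691.3, 678 and 875.6 in siKIF15. The NC libraries were nearly equal and siKIF15 3 was the nearest to them (log2 change -0.73 ± 0.11, adjusted p = 0.00022).

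TRIM2, an NHL-repeat ligase best known in neurons, stood at 162.5, 185.3 and 117.1 under NC, against 76, 78.3 and 82.5 in siKIF15. Its signal fell by 0.94 ± 0.21 on the log2 scale (adjusted p = 0.0063). The siKIF15 libraries were tight and the NC libraries spread. The call ended without NC 2 or siKIF15 1 (adjusted p = 0.06 and 0.057).

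TRIM33, a chromatin reader with a PHD finger and a bromodomain that acts in TGF-beta signalling, stood at 2254.1, 2403.2 and 2453.2 under NC, against 1738.7, 1474.9 and 2074.4 in siKIF15 (log2 change -0.44 ± 0.10, adjusted p = 0.0085). TRIM37, a MATH-domain ligase of centrosomes and peroxisomes, stood at 2634.2, 3047.7 and 2584.7 under NC, against 1977.3, 1975.9 and 2348.9 in siKIF15 (log2 change -0.39 ± 0.09, adjusted p = 0.0073). In both genes siKIF15 3 was the siKIF15 library closest to NC. The TRIM33 call ended without NC 2, NC 3 or siKIF15 1 (adjusted p = 0.075, 0.0501 and 0.088), and the TRIM37 call without NC 2 or siKIF15 1 (adjusted p = 0.079 and 0.089).

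TRIM44, a RING-less member with a zinc finger like that of ubiquitin proteases, had the weakest call. It stood at 5970.2, 5806 and 6265.1 under NC, against 5108.1, 4351.9 and 5572.9 in siKIF15 (log2 change -0.27 ± 0.08, adjusted p = 0.038). Leaving out any NC library ended the call (adjusted p = 0.116, 0.115 and 0.167), and so did leaving out siKIF15 1 or siKIF15 2 (0.142 and 0.125, the latter with a log2 change of -0.17). Under the correction for GC content and length it was lost too, and the log2 change was -0.03 (adjusted p = 0.69).

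A fit without the variance trend ended the calls of TRIM33, TRIM37, TRIM44, TRIM5 and TRIM56 (adjusted p from 0.11 to 0.2).

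The 5 falling members had transcripts of low GC content. Their GC content was 37.3% to 43.3% with a median of 40.3%, beside 50.9% for the 7 rising members and 49.7% for all genes with a value. Their median transcript length was 6.74 kb, beside 3.33 kb and 3.22 kb. Across genes, which are not independent replicates, the difference of siKIF15 1, 2 and 3 from the NC mean gave Spearman correlations with GC content of 0.32, 0.31 and -0.07, and with transcript length of -0.20, -0.34 and -0.04. For NC 1, 2 and 3 themselves they were 0.11, -0.19 and 0.11 with GC content, and -0.12, 0.04 and 0.08 with length. The part of GC content and length in the falls was not tested beyond a correction for both, which put TRIM33 at -0.22 on the log2 scale (adjusted p = 0.006), while TRIM23, TRIM2 and TRIM37 stood at -0.63, -0.79 and -0.37 and kept their calls. The correction added calls for 7 members: TRIM3, TRIM13, TRIM27, TRIM32, TRIM45, TRIM52 and TRIM59. Of these, TRIM13 and TRIM59 were called higher (0.25 and 0.21 on the log2 scale) and the rest lower. Over all genes, the same correction gave 1631 higher and 3095 lower, beside 1599 and 1379 without it.

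Each member was filed in a single class by its C-terminal part, except that members without a RING formed a class of their own. A class is therefore not a count of all members that carry a domain. In the SPRY class, named for the target-binding part of TRIM5 and TRIM21, 5 of 36 members tested rose and none fell. The rising members were TRIM22, TRIM21, TRIM26, TRIM38 and TRIM5, and the class median log2 change was 0.14. All 5 are on the interferon list. The shares that rose and fell were 13.9% and 0% of the class, beside 9.66% and 8.33% of all genes. These shares are not matched for level: many members of the class had a mean under 100, where no family member passed. Of all genes with a mean of at least 100, 11.4% rose and 11.4% fell. Of 6 members with no known C-terminal domain, TRIM56 rose. Of 6 without a RING, TRIM29 rose and TRIM44 fell. The remaining falls were 2 of 3 members in the MATH, ARF or filamin class (TRIM37 and TRIM23), where TRIM45 had a log2 change of -0.16. In the PHD finger and bromodomain class 1 of 3 fell (TRIM33), and in the NHL class 1 of 4 (TRIM2). No member passed among the 4 with COS, fibronectin and SPRY parts, the 2 tested with a COS part only or the 2 with a transmembrane segment. The most abundant members of these classes and of the NHL class were TRIM46, TRIM54, TRIM13 and TRIM32. TRIM46 averaged 800.3 ± 109.6 (SD, n = 3) under NC, against 773 ± 104.3 in siKIF15, TRIM54 16.5 ± 7.7 and 22.2 ± 5.1, TRIM13 1153.7 ± 51.1 and 1212.2 ± 83.5, and TRIM32 1839.6 ± 72.6 and 1640.6 ± 118.7, and the groups overlapped in each. With 2 to 6 members in all classes but SPRY, a single call is a large share, and the classes were not tested against each other or against all genes.

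**Figure D2:**
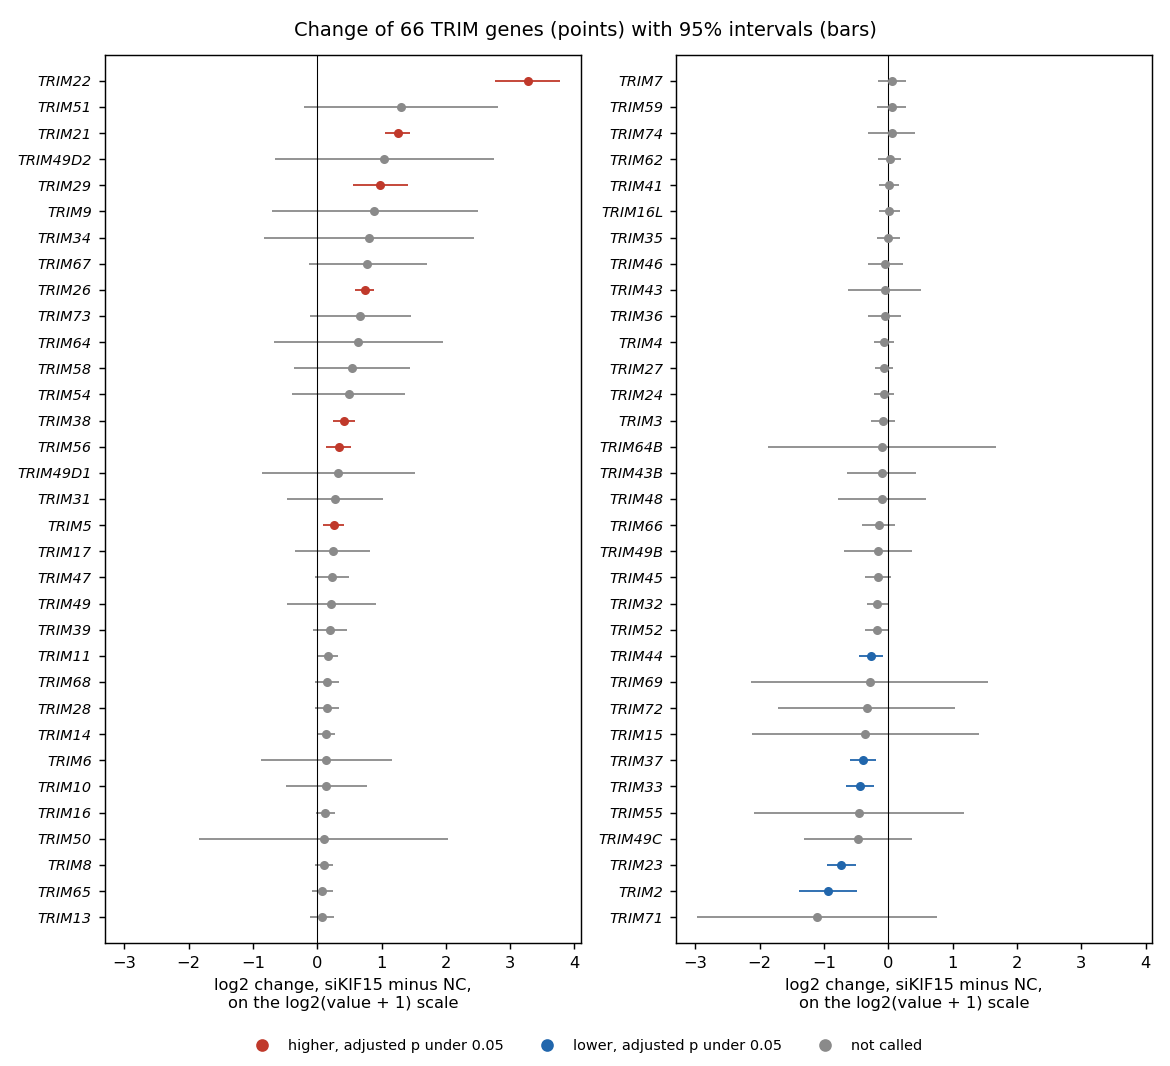
Difference of mean log2(value + 1), siKIF15 minus NC, for each of the 66 TRIM genes tested, ordered from the highest value at the upper left to the lowest at the lower right; points are estimates and bars 95% intervals. The 7 rising genes are red and the 5 falling genes blue; wide grey bars, such as those of TRIM51 and TRIM71, belong to genes near the floor of the values.

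TRIM28, the corepressor that zinc finger proteins recruit to silence retroelements, was the most abundant member per kilobase, with means of 9460 under NC, against 10600 in siKIF15. TRIM27 followed at 2520 and 2400. TRIM14 came next under NC, at 1440, whereas in siKIF15 it stood at 1590, below TRIM26 at 2350. In signal, TRIM28 stood at 28587, 26960.1 and 28439 under NC, against 31281.5, 35340.2 and 27106.3 in siKIF15, so siKIF15 3 lay within the NC range (log2 change 0.15, 95% interval -0.03 to 0.34, adjusted p = 0.27). Without siKIF15 3 it was called higher (log2 change 0.25, adjusted p = 0.0098), as were TRIM11, TRIM16 and TRIM47, and TRIM52 was also called then. The GC and length correction brought TRIM28 to a log2 change of 0. Of 15 partners of TRIM28 in chromatin repression, HDAC1, a histone deacetylase, rose by 0.33 and CBX5, a heterochromatin protein, fell by 0.53 on the log2 scale (adjusted p = 0.0035 and 0.0026). The CBX5 transcript has 41.8% GC and 11.53 kb, beside medians of 49.7% and 3.22 kb for all genes with a value. The part of GC content and length in its fall was not tested. No other partner on the list passed, so 6.67% rose and 6.67% fell, beside 9.66% and 8.33% of all genes. SETDB1, the histone methyltransferase of the complex, had a log2 change of -0.16 (adjusted p = 0.16).

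A second list of 5 members, TRIM24, TRIM28, TRIM33, TRIM36 and TRIM68, was read for their known links to prostate cancer cells. TRIM24, a transcriptional coactivator and the PHD and bromodomain relative of TRIM33, stood at 3491.2, 3463.6 and 3460.3 under NC, against 3214.2, 3131.9 and 3561.2 in siKIF15. The groups overlapped because of siKIF15 3 (log2 change -0.07, 95% interval -0.23 to 0.08, adjusted p = 0.54). TRIM68 stood at 1127.5, 1137.8 and 1037.4 under NC, against 1301.5, 1188.5 and 1167.9 in siKIF15, without overlap (log2 change 0.15, 95% interval -0.04 to 0.34, adjusted p = 0.29). TRIM36, a member with COS, fibronectin and SPRY parts, averaged 450.9 ± 16.8 (SD, n = 3) under NC, against 433 ± 39.8 in siKIF15. TRIM33, which fell, was the only 1 of the 5 listed genes to pass (20%, beside 8.33% of all genes lower).

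Of the tested members, 54 did not pass, and 27 of these had a mean over the 6 libraries of at least 100. TRIM8, TRIM45 and TRIM52 belonged to these, and their groups did not overlap. TRIM8 averaged 4493.4 ± 97.8 (SD, n = 3) under NC, against 4814.1 ± 154.1 in siKIF15, TRIM45 984.6 ± 52.3 and 880.5 ± 37.6, and TRIM52 1819.1 ± 78.8 and 1602.3 ± 116.2, with adjusted p = 0.34, 0.27 and 0.15 (limma). In all, groups did not overlap for 18 of the 66 members (27.3%), beside 34.8% of all genes tested. With a mean of at least 100 they did not overlap for 17 of 39 members (43.6%), beside 40.6% of all genes at that level, and under 100 for 1 of 27 (3.7%), beside 22.0%. Several members were close to level. TRIM35 stood at 2004.6, 1789.4 and 2044 under NC, against 1985, 1877.7 and 1980.8 in siKIF15, and the 95% interval of its log2 change was -0.17 to 0.18. TRIM62 and TRIM41 averaged 1176.9 ± 51.5 and 4379.3 ± 260.6 under NC, against 1194 ± 27.6 and 4413.6 ± 73.5 in siKIF15. After the GC and length correction the log2 changes of TRIM62 and TRIM41 were -0.13 and -0.14 (limma adjusted p = 0.15 and 0.054). With the replicate block added to that correction, TRIM41 was called lower.

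None of the 27 tested members with a mean under 100 passed, beside 5.85% of all 5164 genes at that level called higher and 1.59% called lower, so a count of 0 lies near the background. TRIM67, a member with COS, fibronectin and SPRY parts, was the only 1 of the 27 whose groups did not overlap, at 10.3, 10.2 and 9.5 under NC, against 31, 14.7 and 12.5 in siKIF15 (adjusted p = 0.24). Several of these genes are near-identical copies whose reads cannot be assigned with certainty. The share of 50-base stretches found in another gene was 83.8% in TRIM49, 84.3% in TRIM49C, 100% in TRIM49D2, 77.3% in TRIM43 and 84.7% in TRIM64. Among more abundant members it was 91.7% in TRIM74, and TRIM16 and TRIM16L shared 42.0% and 42.6% with other genes. Around the threshold, TRIM34, TRIM71, TRIM50 and TRIM64B lay just inside, with higher group means of 2, 1.4, 1.8 and 1.9. TRIM63, a muscle ligase, lay just outside at 0, 2.3 and 0 under NC, against 0 in siKIF15. TRIM71 met the threshold through NC alone and TRIM34 through siKIF15 alone, so neither is read as a change.

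Within runs of neighbouring members, some passed the test and others did not. On chromosome 11, TRIM5, TRIM6, TRIM34 and TRIM22 follow each other in the RefSeq gene order, with the readthrough TRIM6-TRIM34 between them. TRIM5 and TRIM22 at the ends of this run rose, 1.20-fold and 9.62-fold. TRIM6 in between was low, at 6.6, 13.6 and 8.5 under NC, against 17.3, 7.4 and 8.3 in siKIF15 (95% interval of the log2 change -0.88 to 1.17). On chromosome 6, TRIM10, TRIM15, TRIM26 and TRIM39 are consecutive, and TRIM26 alone passed. TRIM10 and TRIM15 were low, with means over the libraries of 38.4 and 4.2. The 95% intervals of their log2 changes, -0.49 to 0.77 and -2.12 to 1.41, include the 0.74 of TRIM26. TRIM39, next to TRIM26, averaged 560 ± 79.2 under NC, against 639.8 ± 68.9 in siKIF15 (adjusted p = 0.32), and 26.95% of its stretches are shared with TRIM39-RPP21. On chromosome 5, TRIM7 and TRIM41 adjoin, and TRIM52 lies beyond RACK1, with no call among them.

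**Figure D3:**
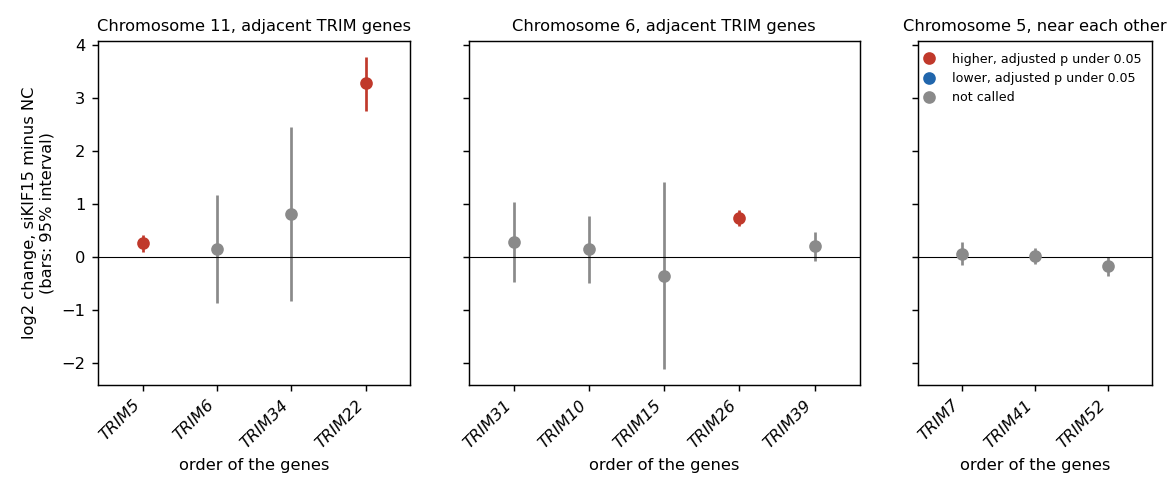
Log2 change (siKIF15 minus NC) of TRIM genes in their order along chromosomes 11, 6 and 5, with 95% intervals as bars and called genes in red. TRIM22 at 3.27 and TRIM26 at 0.74 stand above neighbours that did not pass, and TRIM5 at 0.26 opens the run on chromosome 11. The intervals of TRIM10 and TRIM15, which were low, include 0.74.

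TRIM proteins that carry other symbols, and relatives such as FSD1L, were read from a separate list of 10, of which 9 were in the files and tested. MID1, a microtubule-bound ligase, fell by 0.50 ± 0.07 on the log2 scale, from 7982.1 ± 140.3 (SD, n = 3) to 5646.7 ± 523.8 (adjusted p = 0.00025). FSD1L, a coiled-coil and SPRY relative, fell from 198.3 ± 28.5 to 116.8 ± 24.7 (adjusted p = 0.013). Both falling genes have long transcripts of low GC content, 6.46 kb and 43% for MID1, 7.66 kb and 33.5% for FSD1L. The part of GC content and length in these falls was not tested. PML, the nuclear body protein also named as a TRIM and known to be interferon-stimulated, averaged 1566.3 ± 25.7 and 1771.4 ± 144.5, without overlap (log2 change 0.17, adjusted p = 0.17). RNF207 averaged 529.9 ± 35.3 and 681.5 ± 104, also without overlap (log2 change 0.35, limma adjusted p = 0.059). None of the 9 passed as higher and 22.2% fell, beside 9.66% and 8.33% of all genes, and the median log2 change was -0.14. The share that fell includes FSD1L, listed as a relative.

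Of 14 E2 enzymes that serve ubiquitin ligases or the modifier ISG15, UBE2L6 and UBE2E3 rose and UBE2W fell. These are 14.3% and 7.14% of the list, near the 9.66% and 8.33% of all genes. UBE2L6, the E2 of ISG15, averaged 15.9 ± 13 under NC, against 68.2 ± 30.1 in siKIF15 (adjusted p = 0.0057). UBE2E3 rose by 0.24 and UBE2W, which adds ubiquitin to protein N termini, fell by 0.31 on the log2 scale (adjusted p = 0.037 and 0.038). The UBE2W groups overlapped, with siKIF15 3 at 1881.5 against NC 3 at 1879.7. The UBE2W transcript has 34.8% GC and 8.43 kb, and the part of these in its fall was not tested. UBE2D2, UBE2D3 and UBE2N, the common partners of RING ligases, had log2 changes of 0.07, -0.08 and -0.03. Of 17 antiviral signalling genes whose products TRIM proteins are known to act on or with, 5 rose and 1 fell. The shares are 29.4% and 5.88%, beside 9.66% and 8.33% of all genes. DDX58, the RNA sensor RIG-I, averaged 337.8 ± 53.6 and 7620.4 ± 896.7, the sensor IFIH1 292.6 ± 51.8 and 2082.1 ± 88.7, and the transcription factor IRF7 1892.9 ± 82.2 and 5548.2 ± 741.2. TLR3, an endosomal RNA receptor, rose by 0.71, and TRAF3, named after its values were seen, by 0.28. TAB3, a kinase adaptor, fell by 0.66 (adjusted p = 0.0013), while its relative TAB2 had a log2 change of -0.08. The TAB3 transcript has 39.9% GC and 6.67 kb, and the part of these in its fall was not tested.

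**Figure D4:**
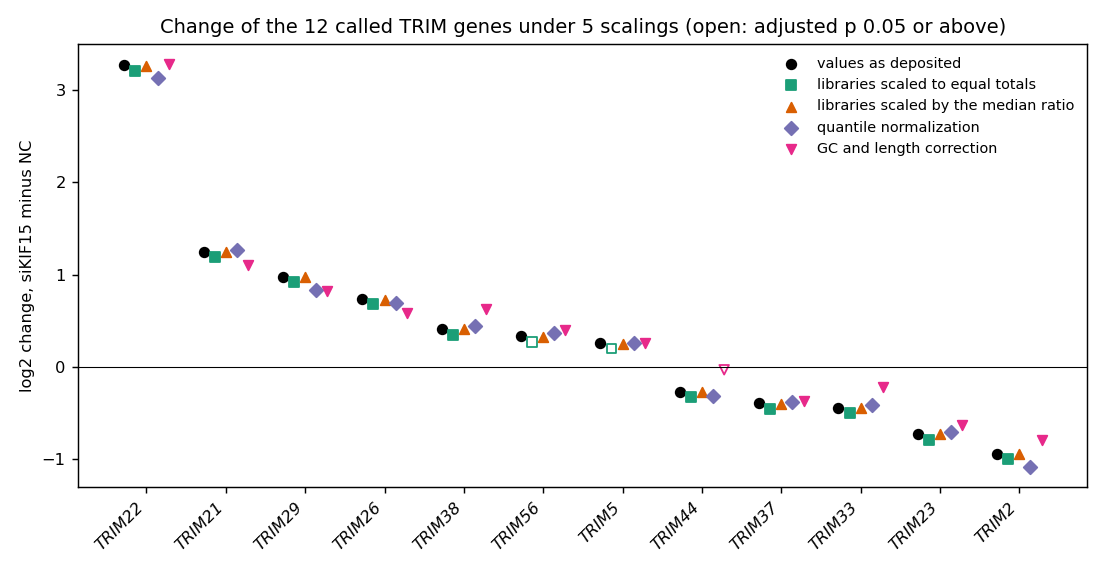
Log2 change (siKIF15 minus NC) of the 12 called TRIM genes with values as deposited and under 4 other scalings; filled symbols have an adjusted p under 0.05 and open symbols do not. TRIM5 and TRIM56 are open with libraries scaled to equal totals and TRIM44 is open after the GC and length correction, at -0.03.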

How the data were processed

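Groups and replicate numbers came from the sample titles. Each deposited file lists gene symbols with 1 signal value apiece. The headers name no unit. Judged from the values, the authors may have equalised library sizes of gene counts. Bowtie 0.12.2 and the builds mm8 and mm9, which are mouse, stand in the submitters' processing notes although the cells are human; the human build, annotation and counting are not given in the sources used here. Poly(A) selection and strand are not stated.

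The design named this test for normalized values. In R 4.3.3, limma 3.58.1 with an intensity trend was fitted to log2(value + 1) for the 16548 genes whose mean reached 1 in either group, with no covariate and a Benjamini-Hochberg threshold of 0.05. The script was tested on simulated data. Fold changes are on the log2(value + 1) scale and understate changes of low genes. An exact permutation test of 3 against 3 libraries cannot go below p = 0.1 and was not used.

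GC content, length and shared 50-base stretches came from GENCODE 29 transcripts (longest coding transcript; 16071 of 16548 genes and all 66 members matched), promoters and gene order from RefSeq tables. Named genes are KIF15, every member called, the interferon list, the list of 5 prostate-linked members, up to 4 of the most abundant members of each class (the first is given for every class), members near the threshold of 1 and, of other lists, the largest calls. Other genes named, among them TRIM6, TRIM35, TRIM39, TRIM62, PML, RNF207, SETDB1, TAB2 and TRAF3, were chosen after their values were seen, and the basal marker list was added then. The members and lists were chosen with earlier results of these data known. Alternatives were 2 other pseudocounts, 2 filters, 3 scalings, 2 variance models, the replicate block, the GC and length correction without and with that block, and leaving out each library. Some marker genes are not reported here and were left out of the marker lists.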

Additional observations from a re-analysis of the deposited data

How the results depend on the processing

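The calls of TRIM22, TRIM21, TRIM26, TRIM29, TRIM38 and TRIM23 held in all 18 alternatives, and those of TRIM2, TRIM37, TRIM33, TRIM5, TRIM56 and TRIM44 were lost in 2, 3, 4, 5, 5 and 8 of 18. Members higher ranged from 5 to 11 without single libraries, the latter without siKIF15 3. Members lower were 2 without the variance trend, 9 after the GC and length correction, 10 with that correction and the replicate block, and 1 to 6 without single libraries, with 1 without NC 2 and 1 without siKIF15 1. Over all genes, without the trend 760 were higher and 310 lower, after the correction 3095 were lower (3243 with the block), and without single libraries 767 to 2537 were higher and 417 to 2540 lower. Of the 9 interferon-listed members, 4 to 6 were higher throughout. The member median was 0 with equal totals and -0.01 after the correction, with or without the block. Beside it, the median over all genes was -0.06 with equal totals and -0.07 after the correction without the block. No member called with the values as deposited changed sign. TRIM41, not called there, changed sign and was called lower after the correction with the block. Of the 66 members, 12 changed sign after the correction, 6 with equal totals, 2 under quantile normalization, 1 each with a pseudocount of 5 and with median-ratio scaling, and 5 to 8 without single libraries. Among the members of the called, interferon and prostate-linked lists these were TRIM28 at 0, TRIM36 at 0.02 and TRIM24 at 0.1 after the correction with or without the block, TRIM36 from -0.11 to 0.02 and TRIM69 from -0.96 to 0.48 without single libraries. The cause of these shifts was not tested. With the replicate number as a block, 7 members were higher and 5 lower, the same 12 genes as without it; same-numbered libraries did not deviate together (correlations 0.02, -0.02 and 0.02), so no pairing was assumed. TRIM34 and TRIM69 gave no value under a minimum mean of 10.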
